A study of Mus musculus with 16 samples.

Results

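The pulmonary and aortic valves of Jag1 mutant mouse embryos were compared by RNA sequencing, with 4 mutant pulmonary and 4 mutant aortic libraries, which are 8 of the 16 libraries of the series. The libraries were chosen by their labels alone. All 8 come from C57BL/6 embryos at stage E14.5 (counted in embryonic days) that carry a floxed Jag1 allele together with Nkx2.5-Cre, and no group here received a treatment. Nkx2.5-Cre cuts out the floxed part in cells in which the heart gene Nkx2-5 is or was active, so cells of the captured tissue without Nkx2-5 history keep the allele. The other 8 libraries, 4 pulmonary and 4 aortic from wild-type embryos, served to ask whether a valve difference depended on genotype. Tissue was cut out by laser, and the RNA was amplified before library making. The pulmonary libraries were made in library batch 2 and the aortic ones in batch 1. Every valve difference below is therefore also one between batches, and these cannot be told apart. Values are normalised counts (CPM after TMM scaling between libraries), and differences are log2(value + 1) of mutant pulmonary minus mutant aortic valve.

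Both outflow valves form from endocardial cushions, in which endocardial cells become mesenchyme that is then thinned and filled with collagen, proteoglycan and elastic fibres. JAG1 is a membrane ligand that activates Notch receptors on neighbouring cells, which then switch on repressors of the Hey and Hes families. In mice and people, loss of JAG1 function disturbs the outflow tract, and the pulmonary side is the one affected most often in people.

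No gene passed the test between the 2 valves of the mutants. Of 13714 genes with a value of at least 1 in 4 or more of the 8 mutant libraries, 0 passed an adjusted p of 0.05 with limma and Benjamini-Hochberg adjustment (0% called, smallest adjusted p 1.00). Before adjustment, 64 genes (0.467%) had a p below 0.05, of which 34 were higher (0.248%) and 30 lower (0.219%) in the pulmonary valve. If no gene differed, a share of about 0.05 of all genes would fall below that limit, so 64 is no excess. edgeR and DESeq2, run on the reads behind the values, also called 0 genes, with 65 and 91 genes at an unadjusted p below that limit. With litter as a block, limma called 0 genes and placed 99 under that limit. The median size of a difference was 0.18 on the log2 scale, and 98 genes exceeded 1. The median 95% interval reached 0.85 to either side of a gene's difference. That interval lay wholly between -1 and 1, that is, under a 2-fold difference in either direction, for 6139 genes (44.8%), and wholly between -2 and 2 for 12601 genes (91.9%). For the other genes the interval reached past these limits. The labels give litters but not embryos, so a pulmonary and an aortic library may share an embryo, and p-values measure only the spread between these libraries.

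The libraries did not group by valve. The split by valve held 6.18% of the sum of squares over all genes, with 1 of 7 degrees of freedom. Pulmonary and aortic libraries correlated at 0.798 to 0.942 across genes (median 0.903 over 16 pairs). Libraries of the same valve correlated at 0.804 to 0.915 (median 0.880 over 12 pairs), so a library was no closer to its own valve than to the other one. The highest correlation of all, 0.942, joined pulmonary library 4 and aortic library 4, which come from different litters and different batches. On the first principal component, with 43.0% of the variance, the outermost libraries were not split by valve. It placed pulmonary library 4 at 72.9 and aortic library 4 at 77.5, against -60.9 for pulmonary library 1 and -55.9 for aortic library 1.

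**Figure D1:**
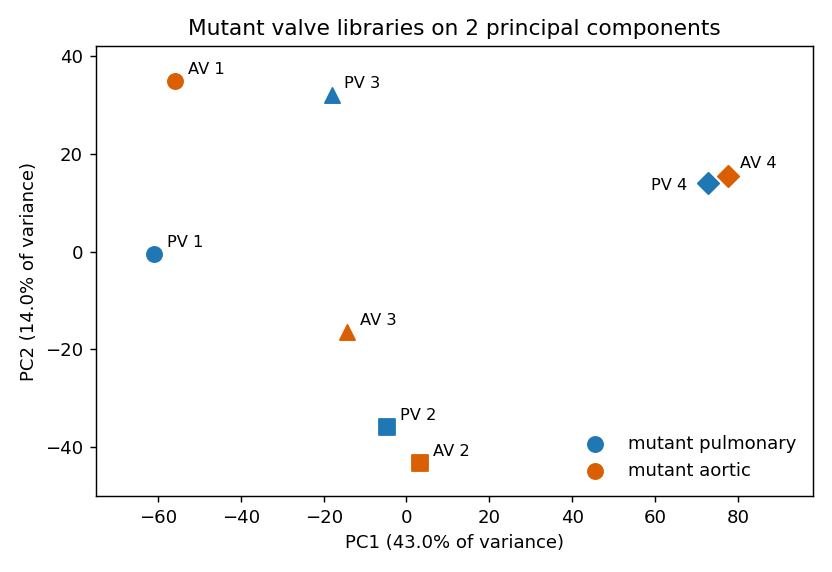
Mutant libraries on the first and second principal component of log2(value + 1), with 43.0% and 14.0% of the variance on the axes; blue is pulmonary (PV), orange is aortic (AV), and the symbol gives the library number. The 2 valves are intermingled, and both libraries 4 stand together at the right.

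The captured tissue differed between libraries in what it held beside the valve. The labelled tissue was checked on 20 markers of valve mesenchyme, all of which were measured. Their mean log2 level was 5.60, 6.74, 6.88 and 6.61 in pulmonary libraries 1 to 4, against 6.70, 6.63, 6.47 and 6.41 in aortic libraries 1 to 4. Pulmonary library 1 was the lowest of the 8, and the other 3 pulmonary libraries lay above the 2 lowest aortic ones. The genes named in the rest of this paragraph and the next were chosen after their values were seen. Tbx20, a transcription factor of the cushions, had 97.98, 976, 549 and 1152 normalised counts in pulmonary and 102, 613, 763 and 1032 in aortic libraries. Its level thus varied about as widely within either valve, from library 1 at the low end to library 4 at the high end. The matrix genes Postn and Vcan were likewise lowest in libraries 1 and highest in libraries 4 of both valves. Postn was at 325 in library 1 and 2459 in library 4 of the pulmonary valve. It was at 307 and 1998 in the same libraries of the aortic valve. Tbx20, Postn and Vcan are among the 20 markers, whose mean did not follow them in the aortic valve. There that mean was highest in library 1 (6.70) and lowest in library 4 (6.41). In the pulmonary valve it was lowest in library 1 and highest in library 3.

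Skeletal muscle, Hox and neuronal transcripts were lowest on average in both libraries 4. Mylpf, a light chain of fast skeletal muscle myosin, had 412, 341, 374 and 7.16 normalised counts in pulmonary and 340, 278, 483 and 0.569 in aortic libraries. Libraries 1 to 3 of both valves therefore contained muscle RNA at like levels, and both libraries 4 nearly none. Over the 20 skeletal muscle markers kept, the mean log2 level was 4.33 to 4.76 in pulmonary libraries 1 to 3 and 4.29 to 5.0 in aortic libraries 1 to 3, but 0.401 in pulmonary library 4 and 0.253 in aortic library 4. The muscle regulator Myod1 and the embryonic myosin Myh3 were at 0 in both libraries 4. Of 20 Hox genes, which mark position along the body axis, the mean was 0.248 in pulmonary and 0.229 in aortic library 4, against 2.32 or more in the other 6 libraries. The 19 neuronal markers averaged 2.60 in pulmonary library 4, against 3.63 to 5.58 in the other pulmonary libraries, and 2.59 in aortic library 4, against 3.66 to 4.47 in the other aortic libraries. Not every neuronal gene followed that order. Stmn2, a microtubule regulator of neurons, reached 250 in pulmonary library 1 but 34.4 to 42.7 in the other pulmonary libraries and 41.8 to 75.2 in the aortic ones. Myh7, the slow cardiac and skeletal myosin heavy chain, was 575 in pulmonary library 2 and 136 in aortic library 3 but at most 30.05 in the other 6. In such captured tissue, fewer cells of a type and less RNA per cell cannot be told apart.

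**Figure D2:**
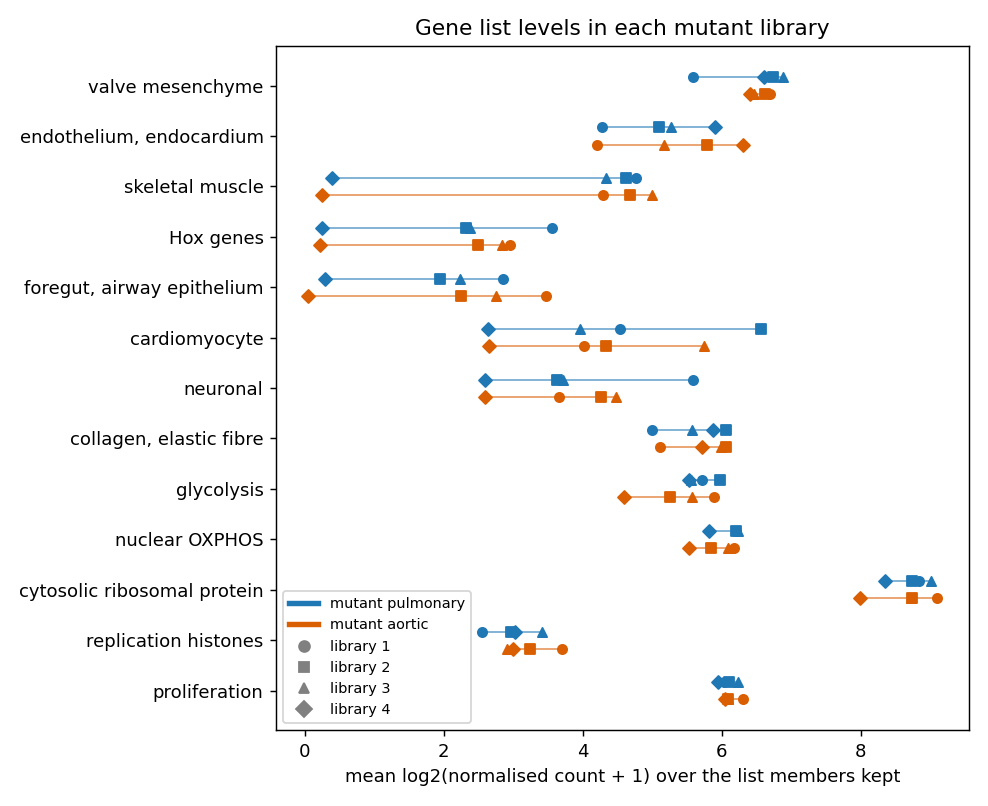
Mean log2(value + 1) of 13 gene lists in each mutant library, pulmonary in blue above aortic in orange, with the symbol giving the library number and the line the range. The ranges of the 2 valves overlap in every list drawn, and both libraries 4 lie apart on skeletal muscle, Hox and foregut epithelium genes (0.401 in pulmonary and 0.253 in aortic library 4 for skeletal muscle).

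Depth did not separate the valves. The pulmonary libraries held 7.27 to 8.27 M recovered reads (M, megareads) and the aortic libraries 6.18 to 8.68 M. The share of reads on mt-Rnr2, a mitochondrial ribosomal RNA, was 14.46% to 20.3% in pulmonary and 14.2% to 23.3% in aortic libraries. Xist, the transcript of the inactive X chromosome, was 1.99 in pulmonary library 1 and 0.126 in aortic library 3, which share a litter, and 483 or more in the other 6, so each valve had 1 library low in Xist.

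Jag1 (ENSMUSG00000027276, GRCm38 chromosome 2, 137081456 to 137116644, minus strand) had 12.4, 4.70, 3.78 and 1.85 normalised counts in mutant pulmonary libraries 1 to 4, against 9.90, 11.4, 5.93 and 10.2 in mutant aortic libraries. Pulmonary libraries 2 to 4 lay below all aortic ones, whereas pulmonary library 1 had the highest value of the 8, so the groups overlapped. The means were 5.68 ± 4.63 in pulmonary and 9.38 ± 2.39 in aortic valves (SD, n = 4 each), a log2 difference of -0.84 with a 95% interval of -1.78 to 0.11. An exact two-sided permutation test over 70 assignments gave p = 0.171, where the smallest possible value is 0.0286. Without both libraries 4 the difference was -0.45. Among the 3 litters that gave both valves, the log2 difference was 0.95 in litter JNC10, -1.13 in JND7 and -1.19 in JND8. In wild-type embryos the same valve difference was -0.72 (SE 0.45), from 18.5 ± 5.34 in pulmonary and 33.3 ± 17.1 in aortic valves (SD, n = 4 each). The test of whether the valve difference depended on genotype gave -0.12 (SE 0.63, limma's adjusted p = 1.00). Reads on exons outside the floxed part are counted too, so the value does not measure the uncut allele.

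No Notch ligand or receptor passed the test between the valves. Of 8 measured, Jag1 among them, 3 lay above 0 and 5 below, with a median difference of -0.06, beside 47.2% above 0 and a median of -0.02 over all genes. No member separated the groups, which 0.773% of all genes did. Notch1, the main endocardial receptor, was 44.8, 150, 131 and 291 in pulmonary and 38.6, 177, 128 and 304 in aortic libraries. It was lowest in library 1 and highest in library 4 of both valves, as was the endothelial marker Pecam1 described below. Notch3, a receptor of mural cells, averaged 23.8 ± 8.44 in pulmonary and 21.9 ± 10.02 in aortic valves (SD, n = 4 each). Notch4, an endothelial receptor, averaged 6.93 ± 4.48 in pulmonary and 7.86 ± 4.88 in aortic valves (SD, n = 4 each), with a 95% interval of the log2 difference from -1.53 to 1.16.

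In the Notch machinery and its target genes, 16 of 32 members lay above 0 (median 0.01), and 0 passed the test. The member with the smallest p was Rfng, which encodes radical fringe, an enzyme that adds sugars to Notch and tunes its answer to different ligands. Rfng had 18.5, 13.3, 23.5 and 24.9 normalised counts in pulmonary and 5.69, 7.67, 17.4 and 11.5 in aortic libraries. The pulmonary value was higher in all 3 shared litters, as for 8.53% of all genes, and by only 0.08 on the log2 scale in JNC10. Aortic library 3 exceeded pulmonary library 2, so the groups overlapped. The log2 difference was 0.93 (SE 0.37, limma's unadjusted p = 0.0229), against -0.57 (SE 0.37) in wild type. Maml2, a coactivator of the Notch transcription complex, had 35.9, 21.6, 46.0 and 26.9 in pulmonary and 51.4, 40.6, 55.7 and 67.1 in aortic libraries, a difference of -0.74 (SE 0.35). Only the lowest aortic value fell within the pulmonary range. Aph1b, a subunit of the gamma-secretase that cuts Notch, averaged 8.75 ± 3.25 in pulmonary and 4.404 ± 2.77 in aortic valves (SD, n = 4 each).

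The Notch target genes of the Hey and Hes families did not pass the test between the valves. Hey1 averaged 30.3 ± 14.7 normalised counts in pulmonary and 25.4 ± 9.82 in aortic valves (log2 difference 0.23, 95% interval -0.56 to 1.01), and Heyl 40.4 ± 9.18 in pulmonary and 39.3 ± 21.8 in aortic valves (0.20, -0.55 to 0.94; SD, n = 4 each). Hey2 ranged from 23.7 to 88.7 in pulmonary and from 14.6 to 127 in aortic libraries, lowest in library 1 and highest in library 4 of both valves. Hes1 averaged 24.4 ± 7.53 in pulmonary and 21.3 ± 9.57 in aortic valves (SD, n = 4 each). The sign of the Hey1, Hey2, Heyl and Hes1 differences changed when single libraries were left out, so no direction is given for them.

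The genes with the smallest p on the higher side included 2 known from cilia, Fam166a and Rsph3b, and 1 known from meiosis, Meioc. Fam166a, which encodes a protein of ciliary microtubules (GRCm38 chromosome 2, 25218745 to 25222280, plus strand), had 12.4, 14.49, 15.3 and 12.8 normalised counts in pulmonary and 7.43, 6.27, 6.31 and 6.12 in aortic libraries. Every pulmonary library was above every aortic one, as for 43 of the genes tested (0.314%). The log2 difference was 0.97 (95% interval 0.31 to 1.63, limma's unadjusted p = 0.00666, adjusted p = 1.00). Fam166a also separated the 2 wild-type valves, at 13.9 to 36.7 in pulmonary and 7.68 to 12.5 in aortic libraries (log2 difference 0.92, SE 0.31). It was the 1 gene of 13714 that separated the valves the same way in both genotypes. In wild type, all pulmonary libraries lay above all aortic ones for 0.408% of the genes. Whether 1 shared gene is more than chance gives was not tested. Fam166a overlaps 121 exonic bases of the tubulin gene Tubb4b on the other strand. The strand setting of the counting is not stated in the labels.

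Meioc, a gene of meiosis in germ cells, had 3.98, 2.28, 3.22 and 1.61 normalised counts in pulmonary and 1.49, 0, 0.378 and 0.427 in aortic libraries. The groups did not overlap, at values near the lower limit of the test (log2 difference 1.30, SE 0.44). Every pulmonary library but only aortic library 1 reached 1, the value asked for a gene to be kept. Meioc was thus tested because of its pulmonary values. Minar2, which encodes a small membrane protein that associates with NOTCH2, had 23.7, 18.1, 14.0 and 22.2 in pulmonary and 11.9, 7.83, 8.58 and 5.26 in aortic libraries. Its difference was 1.15 (SE 0.42), again without overlap, against 0.13 (SE 0.42) in wild type. Cnrip1, whose protein binds the tail of the cannabinoid receptor, had 25.3, 36.9, 16.7 and 28.0 in pulmonary and 13.9, 20.4, 11.1 and 9.53 in aortic libraries. Aortic library 2 exceeded pulmonary library 3, and the difference was 0.91 (SE 0.32). Rsph3b, a radial spoke gene of cilia with the near copy Rsph3a, averaged 16.1 ± 3.04 in pulmonary and 8.87 ± 3.03 in aortic valves (SD, n = 4 each), with 12.04 as the lowest pulmonary and 11.98 as the highest aortic value.

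On the lower side stood broadly expressed genes such as a kinase and a replication factor. Rock1, a kinase that controls actomyosin contraction, had 86.1, 88.4, 94.8 and 68.1 normalised counts in pulmonary and 123, 99.5, 142 and 124 in aortic libraries. All pulmonary values were below all aortic ones, as for 63 of the genes tested (0.459%), with a difference of -0.53 (SE 0.20). Rif1, which sets replication timing and guards broken DNA ends, averaged 66.3 ± 7.82 in pulmonary and 94.6 ± 14.6 in aortic valves (SD, n = 4 each), without overlap. Mysm1, a histone H2A deubiquitinase, had 51.8, 44.2, 54.7 and 60.8 in pulmonary and 65.3, 84.7, 69.0 and 80.1 in aortic libraries, a difference of -0.49 (SE 0.19). In wild type the Mysm1 difference was 0.23 (SE 0.19). Zfp759, a zinc finger gene, was low throughout, at 3.62, 2.15, 2.52 and 0.247 in pulmonary and 6.44, 3.92, 3.78 and 9.81 in aortic libraries (log2 difference -1.22, SE 0.47). None of these 4 genes overlapped between valves, so all were bound to be lower in the pulmonary library of each of the 3 shared litters. Over all genes, 9.44% were lower in each of these litters.

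Rpl10a, a protein of the large ribosomal subunit, was lower in value in the pulmonary valve of both genotypes. It had 135, 201, 217 and 155 normalised counts in mutant pulmonary and 336, 284, 282 and 195.4 in mutant aortic libraries (log2 difference -0.63, SE 0.24). The groups overlapped through aortic library 4. The wild-type difference was -1.003 (SE 0.24), from 136 ± 30.5 in pulmonary and 277 ± 75.2 in aortic valves (SD, n = 4 each). Rps13, of the small subunit, was -0.40 (SE 0.33) in mutants and -1.01 (SE 0.33) in wild type. Rpl10a has 3 and Rps13 has 7 pseudogene copies annotated under the gene's own name that could share their reads, so both values are uncertain. Copies annotated under other names were not counted. Most cytosolic ribosomal protein genes lay on the other side in the mutants, where 65 of 76 were above 0 with a median of 0.12, whereas 14 of 76 were above 0 in wild type, with a median of -0.14. The mean log2 level of these genes was 8.36 to 9.02 in pulmonary and 7.99 to 9.10 in aortic libraries. Without both libraries 4, the difference of these mean levels was 0.01 in place of 0.10.

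**Figure D3:**
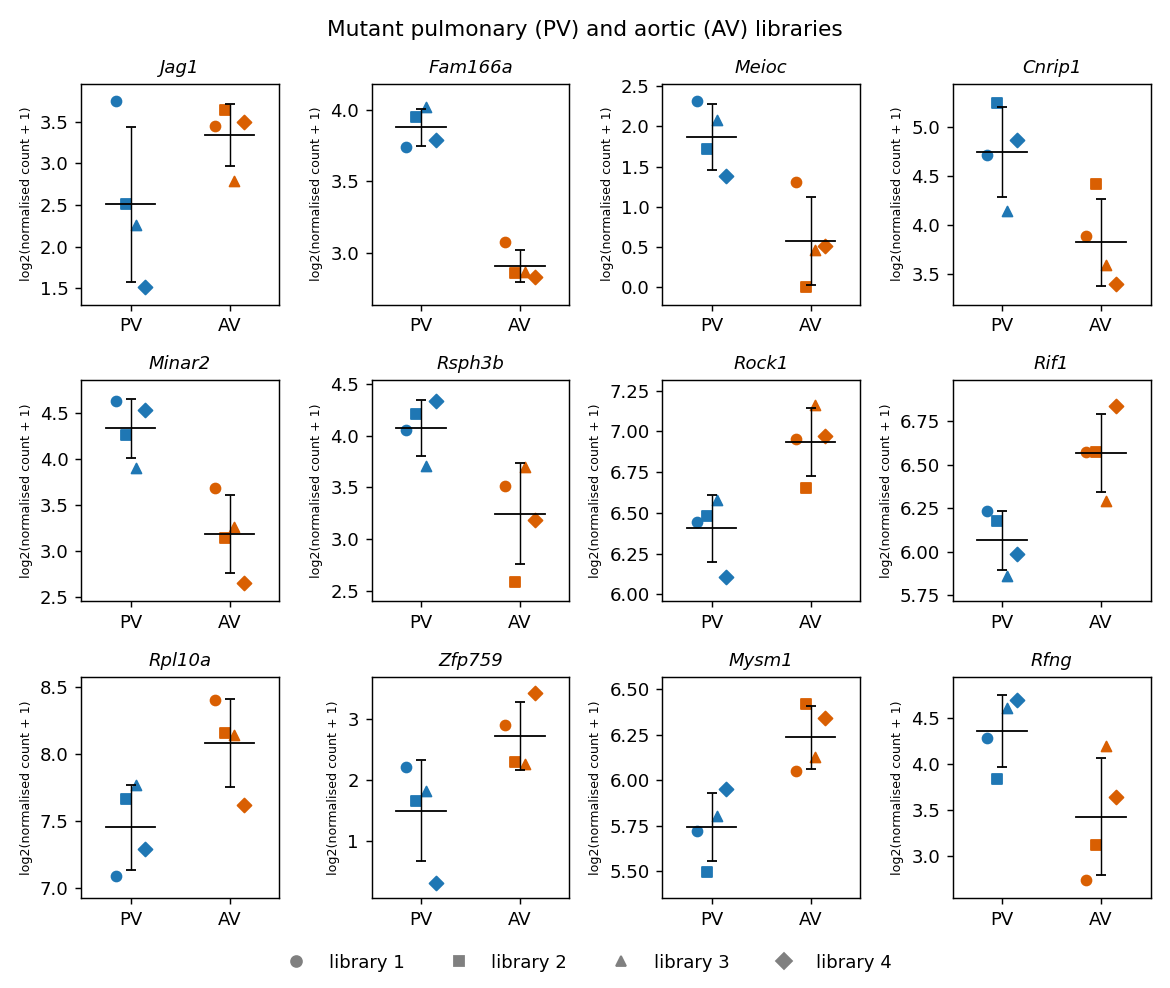
Log2(normalised count + 1) of Jag1, the 10 named genes with the smallest p and Rfng in the 4 mutant pulmonary (PV, blue, left) and 4 mutant aortic (AV, orange, right) libraries; the line is the mean, the bar its SD and the symbol the library number, and vertical axes do not start at 0. Fam166a, Meioc, Minar2, Rsph3b, Rock1, Rif1, Zfp759 and Mysm1 do not overlap between valves, and Jag1, Cnrip1, Rpl10a and Rfng do.

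Energy metabolism showed the most one-sided lists. Of 21 glycolysis genes, 20 lay above 0, with a median difference of 0.33, yet 0 passed the test. No member had valves without overlap, beside 0.773% of all genes, a share too low for that count to tell the list apart. In wild type 6 of the 21 lay above 0. Pfkm, the muscle form of phosphofructokinase, had 28.6, 37.4, 34.4 and 17.3 normalised counts in pulmonary and 24.5, 19.9, 22.3 and 7.25 in aortic libraries (log2 difference 0.71, SE 0.36). Pulmonary library 4 was below 3 aortic libraries. Within each of the 3 shared litters the pulmonary value was the higher, as it was for 8.53% of all genes. Pfkfb3, which makes the activator of phosphofructokinase, averaged 29.5 ± 11.97 in pulmonary and 19.1 ± 6.21 in aortic valves, and the enolase Eno1 200 ± 43.2 in pulmonary and 154 ± 67.5 in aortic valves (SD, n = 4 each). Aortic library 4 was low in the abundant enzymes of the list: Pgk1, Gapdh and Ldha, named after their values were seen, were 93.2, 113 and 277 there, each the lowest of the 8. The mean log2 level of the list was 5.72, 5.98, 5.56 and 5.52 in pulmonary and 5.89, 5.25, 5.57 and 4.60 in aortic libraries. The difference of these means was 0.37, and 0.18 without both libraries 4, where that of Eno1 became -0.01. By shared litter the list difference was 0.15 in JNC10, 0.73 in JND7 and -0.33 in JND8, so the litters did not all point one way.

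Of 75 nuclear genes of oxidative phosphorylation, 67 lay above 0 (median 0.20), against 34 of 75 in wild type, and 0 passed the test. The mean log2 level of the list was 6.21, 6.205, 6.24 and 5.82 in pulmonary and 6.17, 5.85, 6.09 and 5.53 in aortic libraries. The pulmonary mean was higher in all 3 shared litters, by 0.12 in JNC10, 0.36 in JND7 and 0.07 in JND8, and the libraries overlapped between valves. Ndufs3, a core subunit of complex I, had 83.9, 89.7, 93.2 and 58.4 in pulmonary and 69.2, 50.6, 51.6 and 42.8 in aortic libraries (log2 difference 0.59, SE 0.29). Cox5a, of complex IV, averaged 104 ± 25.4 in pulmonary and 76.3 ± 17.997 in aortic valves (SD, n = 4 each). The 15 mitochondrially encoded transcripts did not share this side, with 5 above 0 and a median of -0.08.

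Transcript length moved with these counts. Genes were put in 4 equal groups by transcript length. In the shortest group (median transcript 1529 bases) 58.0% lay above 0, and in the longest (median 6444.5 bases) 37.8% did. Across 13538 genes the rank correlation of length with the valve difference was -0.139 in mutants and 0.022 in wild type. Length was also correlated with each mutant library's deviation from the mutant mean of each gene. That gave -0.002, -0.014, -0.188 and 0.017 in pulmonary libraries 1 to 4. In aortic libraries 1 to 4 it gave -0.109, 0.037, 0.027 and 0.164. The libraries of a valve were thus not alike, with pulmonary library 3 and aortic library 4 furthest from 0. The genes share their libraries, so this is a description without a test. The part of length in the counts of the lists above was not tested.

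Replication-dependent histone genes, which are transcribed in S phase, were on the lower side. Of 42 measured, 8 lay above 0, with a median of -0.23, and 8 of 42 also lay above 0 in wild type (median -0.46). Hist1h2bg had 5.61, 6.84, 7.84 and 4.32 normalised counts in pulmonary and 20.8, 12.2, 16.6 and 11.7 in aortic libraries. It did not overlap between valves (log2 difference -1.18, SE 0.54, limma's unadjusted p = 0.0441), while in wild type its difference was 0.19 (SE 0.54). Hist1h2ap averaged 4.11 ± 1.59 in pulmonary and 7.85 ± 3.50 in aortic valves (SD, n = 4 each). The mean level of the list was lower in the pulmonary library of each shared litter. Histone genes are near copies of each other and most of their transcripts lack a poly(A) tail, so single values are uncertain. The 44 proliferation genes did not move alike, with 17 above 0 and a median of -0.07. Among them Cenpe, a kinetochore motor, averaged 112 ± 14.1 in pulmonary and 147 ± 28.0 in aortic valves, and the topoisomerase Top2a 350 ± 38.6 in pulmonary and 420 ± 27.6 in aortic valves (SD, n = 4 each).

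Among signalling pathways of valve growth, most members were close to 0 or below. In the Wnt list 15 of 41 lay above 0 (median -0.17), in the BMP list 8 of 26 (median -0.08) and in the TGF-beta list 6 of 19 (median -0.06). Wnt2b, a secreted Wnt ligand, had 2.22, 2.82, 2.94 and 1.98 normalised counts in pulmonary and 11.0, 4.86, 7.44 and 5.69 in aortic libraries. It was the 1 of 41 Wnt genes whose valves did not overlap, beside 0.773% of all genes (log2 difference -1.20, SE 0.53, limma's unadjusted p = 0.0390, adjusted p = 1.00). Sfrp2, a secreted Wnt antagonist, had 38.3, 125, 111 and 48.0 in pulmonary and 121, 98.8, 303 and 96.4 in aortic libraries, with aortic library 3 highest (difference -0.93, SE 0.47). Fzd4, a Wnt receptor, averaged 19.3 ± 9.82 in pulmonary and 29.3 ± 9.59 in aortic valves (SD, n = 4 each). Inhba, which encodes the activin A subunit, had 12.5, 18.9, 19.7 and 31.1 in pulmonary and 22.9, 25.1, 51.8 and 72.5 in aortic libraries (difference -0.94, SE 0.47). It was lower in the pulmonary library of each shared litter, as were 9.44% of all genes. Bmp4 ranged from 8.89 to 59.9 in pulmonary and from 21.5 to 82.6 in aortic libraries. Smad1, which carries BMP signals to the nucleus, averaged 96.1 ± 17.6 in pulmonary and 71.8 ± 17.99 in aortic valves (SD, n = 4 each).

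Endocardial and endothelial genes were lower in value in the pulmonary valve for 24 of 30 members (6 above 0, median -0.20), and 0 passed the test. In wild type 19 of the 30 lay above 0. By shared mutant litter, the difference of the list mean was -0.89 in JNC10, -0.69 in JND7 and 1.05 in JND8. The litters thus did not all point one way. Cldn5, a tight junction protein of endothelium, had 2.22, 6.84, 6.998 and 4.20 normalised counts in pulmonary and 4.21, 17.1, 8.70 and 14.51 in aortic libraries (log2 difference -0.94, SE 0.50). Prox1, a transcription factor of lymphatic and valve endothelium, had 96.2, 101, 93.9 and 131 in pulmonary and 48.9, 219, 180 and 344 in aortic libraries. The pulmonary values of Prox1 sat closely together inside the wide aortic range. Pecam1 had 45.0, 81.9, 154 and 236 in pulmonary and 55.3, 163, 135 and 337 in aortic libraries, with library 1 lowest and library 4 highest in both valves. The mean level of the list followed that order too, from 4.28 in library 1 to 5.91 in library 4 of the pulmonary valve and from 4.21 to 6.31 in the aortic valve.

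No extracellular matrix gene passed the test between the valves. Of 46 collagen and elastic fibre genes 20 lay above 0 (median -0.02), and of 39 proteoglycan and matricellular genes 15 did (median -0.08). Col27a1, a cartilage-type fibrillar collagen, averaged 52.9 ± 17.96 in pulmonary and 69.3 ± 20.7 in aortic valves, and Gpc4, a cell-surface proteoglycan, 36.8 ± 20.2 in pulmonary and 53.7 ± 29.6 in aortic valves (SD, n = 4 each). Adamts3, a procollagen protease, had 12.98, 6.31, 4.62 and 6.42 in pulmonary and 14.9, 14.6, 9.84 and 11.9 in aortic libraries. Pulmonary library 1 alone lay inside the aortic range (log2 difference -0.76, SE 0.41). Retinoic acid genes also overlapped: Aldh1a2, the enzyme that makes retinoic acid, had 14.0, 8.59, 6.02 and 0 in pulmonary and 31.8, 13.6, 11.1 and 1.42 in aortic libraries, a spread that left a 95% interval from -3.23 to 1.33. Guidance genes had 18 of 53 above 0, among them Sema6a on the lower side at 87.3 ± 39.9 in pulmonary and 125 ± 31.3 in aortic valves (SD, n = 4 each).

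Markers of cells outside the valve did not pass the test between the valves either. For skeletal muscle 8 of 20 lay above 0 (median -0.08), for cardiomyocytes 17 of 25 (median 0.19), for neurons 16 of 19 (median 0.09), for red cells 2 of 13 (median -0.24) and for macrophages 13 of 22 (median 0.04). Myl3, a ventricular myosin light chain, averaged 49.1 ± 75.6 in pulmonary and 14.4 ± 16.4 in aortic valves (SD, n = 4 each), with 162 in pulmonary library 2. Nmnat2, an NAD-making enzyme of axons, had 45.5, 11.9, 20.4 and 15.8 in pulmonary and 6.68, 15.7, 18.7 and 7.25 in aortic libraries, with pulmonary library 1 the highest, as for Stmn2. In wild type 2 of the 25 cardiomyocyte genes and 2 of the 20 skeletal muscle genes lay above 0. No lymphoid or thymus gene of the list was kept.

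Comparing the genotypes asked whether the valve difference itself depended on genotype. Batch is the same split in wild type. A batch shift of equal log2 size in both genotypes cancels in this test, and an unequal one does not. No gene passed this test with limma (0% called, smallest adjusted p 1.00). Before adjustment 254 genes (1.85%) had a p below 0.05, 135 (0.984%) higher and 119 (0.868%) lower, and edgeR and DESeq2 called 0 as well, with 225 and 282 genes under that limit. In wild type alone 0 genes passed, with 150 (1.09%) below 0.05 before adjustment, 56 higher (0.408%) and 94 lower (0.685%) in the pulmonary valve. These counts too are no excess over the share of about 0.05 that would fall below that limit if no gene differed. All pulmonary libraries lay above all aortic ones for 56 genes (0.408%) in wild type and below them for 68 (0.496%), which together are 124 genes (0.904%) without overlap. The valve differences of mutant and wild type, which share no library, lay on the same side of 0 for 5380 of 13714 genes (39.2%), with a Pearson correlation of -0.356 and a Spearman correlation of -0.319 across genes. Genes within a library are not independent, and muscle, neuron and red cell content differed between the libraries of both genotypes, whose part in that relation was not tested.

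The smallest p of this test belonged to Cnrip1. It was higher in the pulmonary valve of mutants, at 26.7 ± 8.35 in pulmonary and 13.7 ± 4.78 in aortic valves, and lower in that of wild type, at 10.7 ± 1.15 in pulmonary and 24.6 ± 9.34 in aortic valves (SD, n = 4 each). The wild-type libraries of Cnrip1 did not overlap, and the difference of the valve differences was 1.98 (SE 0.45, limma's unadjusted p = 0.000414, adjusted p = 1.00). It overlaps 199 exonic bases of Plek on the other strand. Paxx, a factor of DNA end joining, had 9.94, 8.99, 11.9 and 10.6 normalised counts in mutant pulmonary and 6.68, 7.99, 3.78 and 4.27 in mutant aortic libraries. In wild type it was 2.55 to 6.94 in pulmonary and 7.52 to 15.6 in aortic libraries, so both genotypes separated their valves, in opposite directions (difference of the valve differences 1.77, SE 0.50). Pdp2, a pyruvate dehydrogenase phosphatase, and Rex1bd gave 2.17 (SE 0.67) and 1.43 (SE 0.44), with wild-type valve differences of -1.64 and -1.20. Tnfsfm13 gave 2.43 (SE 0.66), but it is a read-through of Tnfsf12 and Tnfsf13 on the same strand, at 0 in 3 wild-type pulmonary libraries, and its value is uncertain.

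On the other side, Ccnf, which encodes cyclin F, had 16.5, 25.5, 16.8 and 25.9 normalised counts in mutant pulmonary and 26.1, 30.2, 30.3 and 39.5 in mutant aortic libraries. In wild type it averaged 43.2 ± 14.2 in pulmonary and 21.6 ± 5.11 in aortic valves (SD, n = 4 each), and the difference of the valve differences was -1.50 (SE 0.39, limma's unadjusted p = 0.00136). Gen1, a resolvase of recombining DNA, had 15.2, 12.6, 14.6 and 9.02 in mutant pulmonary and 23.1, 24.1, 27.0 and 21.8 in mutant aortic libraries. The mutant groups of Gen1 lay far apart relative to their spread, whereas wild-type aortic libraries ran from 11.3 to 37.9 (difference of the valve differences -1.68, SE 0.49). Cars, the cysteinyl-tRNA synthetase gene, was 9.66 to 12.04 in mutant pulmonary and 15.1 to 25.03 in mutant aortic libraries, also without overlap. LTO1, which overlaps 1100 exonic bases of Ccnd1, and Tbl2 gave -1.54 (SE 0.41) and -1.11 (SE 0.35). All 5 were lower in the pulmonary library of each shared mutant litter, as were 9.44% of all genes. For Ccnf, Gen1 and Cars, whose mutant valves did not overlap, this was bound to be so. All 5 were chosen by a test on these same libraries.

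**Figure D4:**
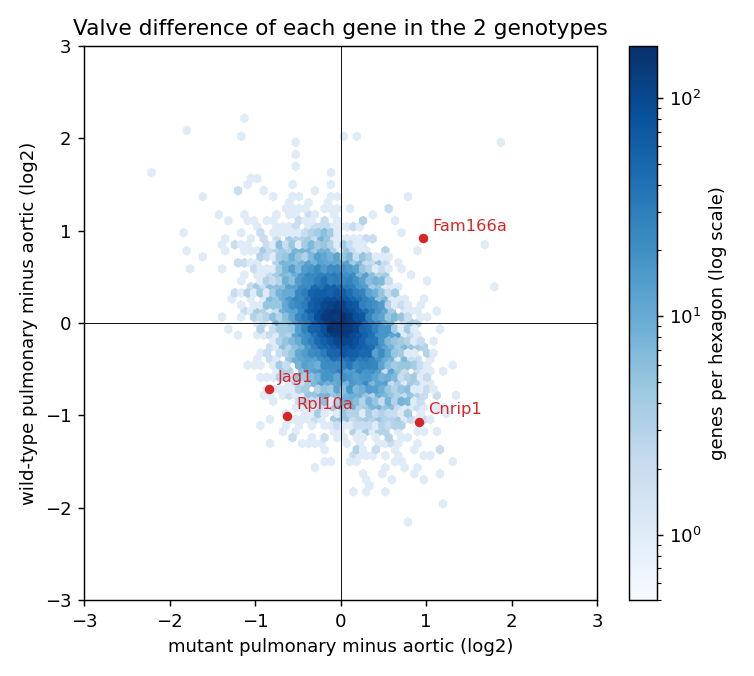
Pulmonary minus aortic difference (log2) of each of 13714 genes in mutants on the horizontal axis and in wild type on the vertical axis, with darker hexagons holding more genes (log scale). The cloud leans from upper left to lower right (Pearson -0.356), with Fam166a (0.97 and 0.92) above 0 and Rpl10a (-0.63 and -1.003) and Jag1 (-0.84 and -0.72) below 0 on both axes, and Cnrip1 on opposite sides (0.91 and -1.07).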

How the data were processed

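Per the submitters' processing notes, CASAVA 1.8.2, cutadapt 1.6, FastQC and RSEM 1.2.3 were used with genome build GRCm38; roles, annotation, strand setting and normalisation were not given in the sources used here. RNA was isolated with a Picopure kit and amplified with an Ovation V2 kit, per the labels' protocols. The deposited signal is 1 normalised value per gene and library (13964 genes). Its steps gave whole reads for 100% of values (tolerance 0.05 read), and its scaling matched TMM factors recomputed here, so they are TMM-rescaled CPM; RSEM counts are estimates, shared between near copies.

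Log2(value + 1) was fitted with limma 3.58.1 (R 4.3.3; mean-variance trend; 16 libraries, 4 group means; two-sided tests; Benjamini-Hochberg over 13714 genes; threshold 0.05). The wild-type libraries lend spread to the mutant comparison. Differences on this log2 scale understate the change of low genes. Of the IDs kept, 176 have no symbol. edgeR 4.0.16 and DESeq2 1.42.0 on the recovered counts, other pseudocounts, filters, scalings, weights, blocks and left-out libraries were alternatives. The fit was tested on simulated data with independent genes, which lack the litter and tissue differences of these libraries. None of the 28 pairs of mutant libraries agreed within sampling noise. Within a valve, mutant and wild-type libraries of the same number share a litter; between valves only those numbered 2 do. Of 5 litters, 3 gave both valves. Deviations from group means correlated at 0.46, 0.10, -0.03 and 0.65 between libraries of the same number and at 0.21, 0.10 and 0.24 within the shared litters.

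Most genes were named by rule: Jag1, the 5 smallest p per direction with a common name, up to 3 members of each list and 5 per direction for the genotype test. Notch1, Pecam1, Hey1, Hey2, Heyl and Hes1 were named outside this rule, as were Xist and mt-Rnr2. Genes chosen after their values were seen are marked where they first appear. Libraries, lists and tests were chosen with earlier results of these data known. Coordinates and lengths are from GENCODE M21.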

Additional observations from a re-analysis of the deposited data

Results flagged for a closer look

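In 20 of 268 groups of 4 libraries checked on the log2 scale, 1 library lay far from the other 3. Chance flags about 1 in 20 groups. The genes checked include some chosen after their values were seen, among them Mylpf, Myod1, Myh3 and Stmn2, which are flagged here. The count of 20 therefore cannot be set against that chance rate. In 9 of the 20 flagged groups the library that lay apart was a library 4.

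Several of these concern skeletal muscle genes. Their 20 markers averaged 0.401 on the log2 scale in pulmonary library 4, against 4.33 or more in the other pulmonary libraries, and 0.253 in aortic library 4, against 4.29 or more in the other aortic libraries. Mylpf was 7.16 normalised counts in pulmonary library 4 and 0.569 in aortic library 4. Myod1 and Myh3 were at 0 in aortic library 4. The Hox list averaged 0.229 in aortic library 4, where the others were at least 2.502, and nuclear oxidative phosphorylation genes averaged 5.82 in pulmonary library 4, where the others were at least 6.205. The forkhead gene Foxc2 was 33.3 in aortic library 4 and at most 12.2 in the other aortic libraries.

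Other libraries stood apart on single genes or lists. In pulmonary library 1, Stmn2 was 250, Hist1h2ap 1.75 and Xist 1.99, and guidance genes averaged 3.71 on the log2 scale. In pulmonary library 2, Foxc2 was 2.28, the retinoic acid-degrading enzyme gene Cyp26a1 was 7.65 and Cars was 9.66. In aortic library 1, Fam166a was 7.43, the retinaldehyde reductase gene Dhrs3 was 38.4 and Pfkfb3 was 28.3, and Notch machinery and target genes averaged 4.22. What sets these libraries apart was not tested.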

How the results depend on the processing

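All 23 alternative settings called 0 genes, for the mutant valves, for the wild-type valves and for the genotype test, in each setting that fits that comparison. The 64 genes at an unadjusted p under 0.05 became 175 with the number in the library name as a replicate block, 99 with litter as a block, 124 with litter as a random effect (estimated correlation 0.215), 252 with library weights and 159 with skeletal muscle level as a covariate. Leaving out 1 library gave 63 to 167, with 114 without pulmonary library 1, 127 without pulmonary library 4 and 167 without aortic library 1, and other settings gave 51 to 91. For the genotype test, the 254 genes became 511 with the replicate block, 430 with the litter block, 422 with litter as a random effect, 396 with weights and 390 with the covariate. The cause of these shifts was not tested. All these counts stayed below a share of 0.05 of the genes tested. Between valves, same-numbered libraries share a litter only for number 2, so the replicate block does not pair the valves by litter; within a valve it pairs mutant and wild type by litter. Jag1 stayed between -0.45 and -1.25. Over all lists and settings, the count of list members above 0 moved past a set margin in 125 results and stayed within it in 726. The list counts above are thus not the same in every setting.

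The sign of the valve difference was not the same in every setting for 9 genes. Leaving out 1 library gave -0.057 to 0.40 for Hey1, -0.45 to 0.56 for Hey2, -0.16 to 0.49 for Heyl, -0.0027 to 0.48 for Hes1, -0.18 to 0.44 for Notch3, -0.52 to 0.18 for Notch4, -0.86 to 0.017 for Bmp4 and -0.026 to 1.77 for Csrp3, a cardiomyocyte marker. The library that reversed it was pulmonary 1 for Hey1 and Bmp4, pulmonary 2 for Hey2 and Notch4, pulmonary 4 for Hey2, aortic 1 for Hey2, Notch3 and Heyl, aortic 2 for Notch4, and aortic 4 for Hey1, Hes1 and Csrp3. Hey2 also reversed with edgeR (-0.13) and DESeq2 (-0.12), Notch4 with the litter block (0.13) and Eno1 without both libraries 4 (-0.013). The cause was not tested.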
